A study of Mus musculus with 12 samples.

Results

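The genes described here are 10 CC chemokines of mouse skin: Ccl2, Ccl3, Ccl4, Ccl7, Ccl8, Ccl11, Ccl17, Ccl20, Ccl22 and Ccl24. They were chosen by name, each is read by an array row that names it alone, and they are 10 of the 22180 genes tested. Levels are log2 of the deposited array intensity. Dorsal skin RNA of C57Bl/6 mice was read on 12 arrays, 1 for each of 6 groups at 14 and at 10 weeks of age. IL-17C+KO mice carry a transgene that overexpresses the cytokine IL-17C and lack IL-6, IL-17C+ mice carry the transgene alone, IL-6KO mice lack IL-6 alone and WT mice carry neither change. IL-17C+KO and IL-17C+ skin was taken as involved (lesional) and as uninvolved skin, which gives 4 transgenic groups. The labels name no agent beyond the ketamine and xylazine used for euthanasia. Each array holds a pool of male and female mice, 4 mice in the IL-6KO and WT pools at 10 weeks and 5 mice in the other pools. No source used here names the promoter or cell type that drives the transgene. The 2 ages are the only replicates of a group, so every p-value measures the spread between pools and not between mice.

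CC chemokines are small secreted proteins that bind G protein-coupled receptors on white blood cells and draw those cells into tissue along a gradient. In inflamed skin they are made by keratinocytes, fibroblasts, endothelium and the infiltrating cells themselves, and different members call monocytes, neutrophils, eosinophils or subsets of T cells. CCL20 and the IL-17 cytokines are a known pair in psoriasis, where CCL20 draws T cells and dendritic cells that carry CCR6.

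Promoters of 5 members, Ccl3, Ccl8, Ccl17, Ccl20 and Ccl22, were matched by symbol in the RefSeq table of build GRCm38.p6, and those of Ccl2, Ccl4, Ccl7, Ccl11 and Ccl24 were not. The promoters of Ccl3 and Ccl20 are shown because Ccl3 changed the most between groups while Ccl20, the member best known as an IL-17 target, did not pass in any comparison of the full model. Each runs from 250 bases before the gene's start to 50 bases after it, 5′ to 3′ on the gene's strand. The Ccl3 promoter lies at chr11:83649329-83649628 on the minus strand and the Ccl20 promoter at chr1:83116516-83116815 on the plus strand. Capitals mark matches to a pattern of the NF-kB type, searched on both strands.
Ccl3: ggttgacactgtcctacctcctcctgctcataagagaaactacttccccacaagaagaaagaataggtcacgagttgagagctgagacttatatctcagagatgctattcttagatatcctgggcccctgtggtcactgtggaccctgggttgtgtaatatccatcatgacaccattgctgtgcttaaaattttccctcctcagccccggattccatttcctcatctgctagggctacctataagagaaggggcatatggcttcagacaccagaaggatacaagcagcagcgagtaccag
Ccl20: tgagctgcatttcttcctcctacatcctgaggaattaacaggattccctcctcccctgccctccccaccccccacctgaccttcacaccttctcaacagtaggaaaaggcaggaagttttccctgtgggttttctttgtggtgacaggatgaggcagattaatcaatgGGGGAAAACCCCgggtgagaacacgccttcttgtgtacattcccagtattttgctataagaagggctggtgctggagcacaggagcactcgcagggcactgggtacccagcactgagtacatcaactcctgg
The capitals of Ccl20 hold 3 overlapping matches, the first of which is GGGGAAAACC and starts at position -82 from the start site. The pattern is common, present in 50.4% of the 27025 promoters of this length. Ccl22 held 2 matches to it. The Ccl3 promoter held no match to it, nor to the STAT3-type palindrome (in 8.47% of promoters), the STAT6-type palindrome (6.99%), the AP-1 pattern (7.93%) or the TATA box (14.2%). Ccl17 held 1 match to each STAT-type palindrome, and Ccl8 held 1 TATA box. These are matches of letters in a window, and no binding was measured.

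Several values go against the labels, so group names below are those of the labels. Il17c, the gene of the transgene's product, read 6.17 and 6.30 (14 and 10 weeks) in skin labelled IL-6KO, against 4.96 and 4.67 in WT skin. In transgenic mice without IL-6, Il17c read 5.62 and 5.32 in the involved pools and 6.25 and 6.16 in the uninvolved pools. In those with IL-6 it read 6.63 and 5.81 in the involved pools but 4.16 and 4.74 in the uninvolved pools. Il17c in IL-17C+ uninvolved skin thus differed from WT by -0.37 ± 0.30 (limma adjusted p = 0.904). Il6 read 5.00 and 4.93 in IL-17C+KO uninvolved skin and 4.64 and 3.14 in IL-17C+KO involved skin, although mice of both labels lack IL-6. In IL-6KO skin it read 2.79 and 2.68, and in WT skin 2.88 and 2.92. Il6 in IL-17C+ skin read 3.21 and 4.23 in the involved pools and 3.02 and 3.28 in the uninvolved pools. No source used here says whether these rows read the transgene or the disrupted part of Il6. Markers of neutrophils followed neither the word involved nor the word uninvolved. All 8 were measured, and their intensities summed to 198 to 1079 in IL-17C+KO involved, 3619 to 5231 in IL-17C+KO uninvolved skin, 3607 to 5101 in IL-17C+ involved, 139.5 to 179.2 in IL-17C+ uninvolved, 285.2 to 733.9 in IL-6KO and 141.8 to 186.1 in WT skin. At 14 weeks S100a8 and S100a9 made most of the sum in IL-6KO (258 and 357) and in IL-17C+KO involved skin (412 and 512). Of the others in IL-6KO skin, Cxcr2 lay above both WT pools and Mmp9 below them. Retnlg, Csf3r, Mmp8 and Trem1 overlapped the WT pools. The IL-6KO pools carry the word involved in one label, although their protocol describes skin of regions similar to those of C57Bl/6 mice. Skeletal muscle markers had a mean log2 level of 9.01 and 10.39 in the IL-17C+KO involved pools, 9.05 and 8.56 in the IL-17C+KO uninvolved, 7.88 and 8.19 in the IL-17C+ involved, 10.42 and 10.77 in the IL-17C+ uninvolved, 8.31 and 9.34 in the IL-6KO and 10.88 and 10.19 in the WT pools. They were low where neutrophil markers were high, and also in IL-6KO skin, where neutrophil markers summed to at most 733.9. The 14-week IL-17C+KO involved pool (9.01) lay near the 14-week IL-17C+KO uninvolved pool (9.05). Fibroblast markers (6 of 6 measured) summed to 8045 to 8986 in IL-17C+KO involved and to 6471 to 7160 in IL-6KO skin. In the other groups they summed to between 15220 (IL-17C+ involved) and 26490 (IL-17C+ uninvolved). Keratinocyte markers marked every pool as skin (5 of 6 measured, mean log2 9.11 to 10.13). In bulk skin, fewer cells of a type and less RNA per cell cannot be told apart.

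Over the 12 arrays, 4 of the 10 members spanned more than 2 log2 units, which 4.53% of all genes did. These are Ccl3 (5.88), Ccl4 (3.82), Ccl2 (2.04) and Ccl7 (2.04). The other 6 spanned 0.61 (Ccl11) to 1.87 (Ccl20), and the median gene spanned 0.87. Ccl17 lay below the array's median gene on 11 arrays and Ccl20 on 10. Ccl3 lay below it on 6 arrays, among them both WT and both IL-6KO arrays, so its folds over these groups start from a dim level. The plot of all members by array shows that Ccl3 and Ccl4 are high on the same 4 arrays.

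**Figure D1:**
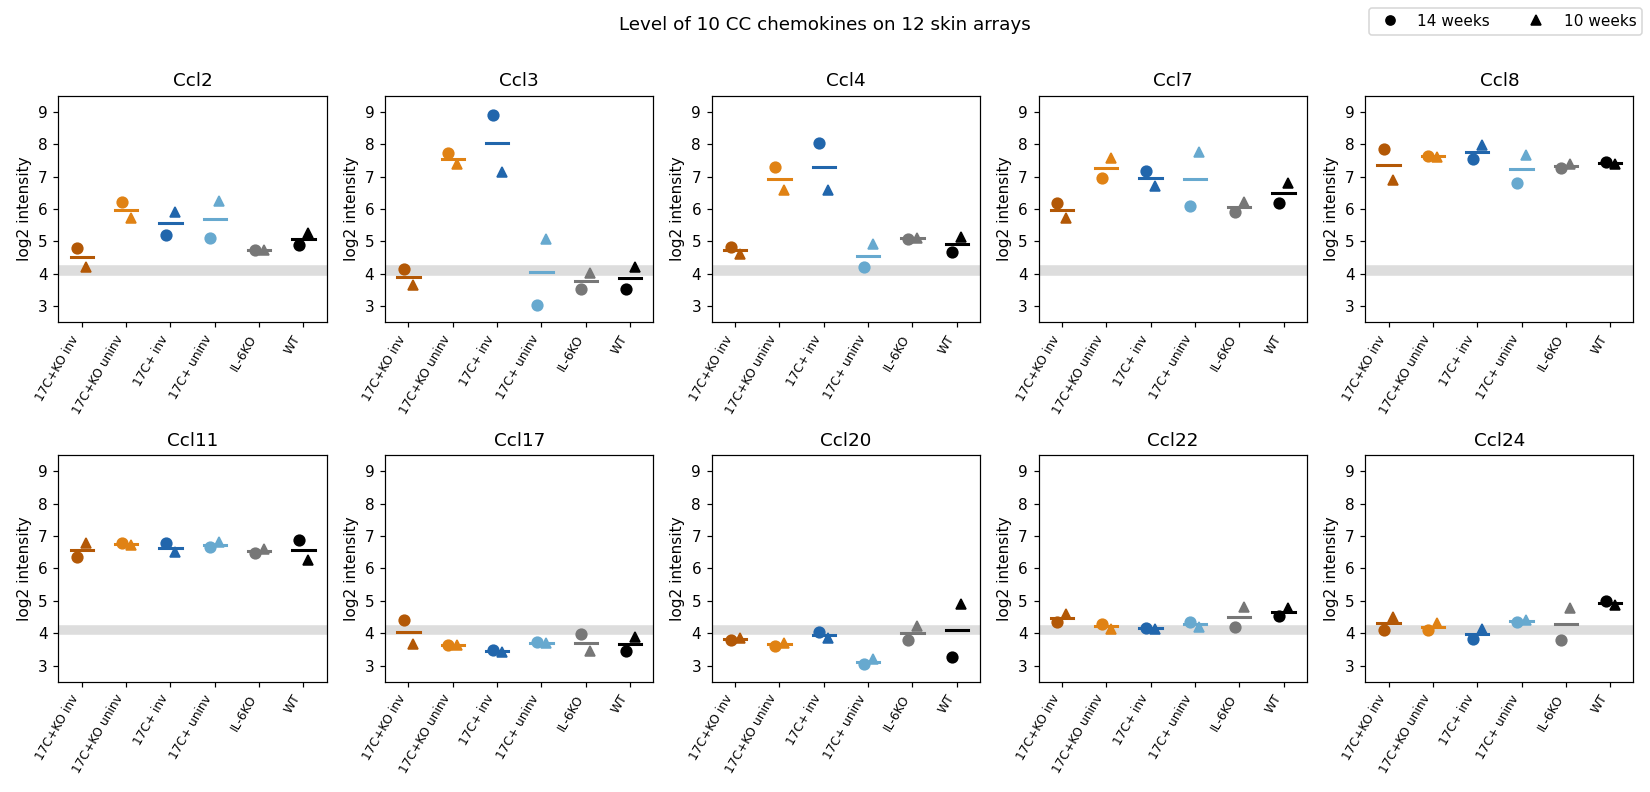
Log2 intensity of each of the 10 CC chemokines (y axis) in the 6 labelled groups (x axis), with circles for 14 weeks, triangles for 10 weeks and a bar at the mean of the 2 pools. The grey band spans the array medians (3.97 to 4.23). Ccl3 and Ccl4 are high in both pools of IL-17C+KO uninvolved and IL-17C+ involved skin, and the other 8 members overlap between most groups.

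Ccl3 and Ccl4, which encode MIP-1α and MIP-1β, ligands that draw monocytes, macrophages, neutrophils and T cells, were the members that changed. Ccl3 read 8.91 at 14 weeks and 7.15 at 10 weeks in IL-17C+ involved skin, against 3.54 and 4.21 in WT skin. In the other groups Ccl3 read 4.16 and 3.65 in IL-17C+KO involved, 7.72 and 7.39 in IL-17C+KO uninvolved skin, 3.03 and 5.08 in IL-17C+ uninvolved, and 3.54 and 4.03 in IL-6KO skin. The 4 arrays of IL-17C+KO uninvolved and IL-17C+ involved skin thus stand at 7.15 or above, and the other 8 at 5.08 or below. Ccl4 read 8.03 and 6.58 in IL-17C+ involved skin, against 4.68 and 5.14 in WT skin. It read 4.84 and 4.61 in IL-17C+KO involved, 7.29 and 6.58 in IL-17C+KO uninvolved skin, 4.22 and 4.91 in IL-17C+ uninvolved, and 5.08 and 5.11 in IL-6KO skin. The same 4 arrays are the highest for Ccl4, and none of them overlaps the other 8. How many of all genes split these arrays in the same way was not counted.

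By group mean, Ccl3 was highest in IL-17C+ involved skin (8.03 ± 1.25, SD, n = 2), then in IL-17C+KO uninvolved (7.55 ± 0.24), IL-17C+ uninvolved (4.06 ± 1.45), IL-17C+KO involved (3.90 ± 0.36), WT (3.88 ± 0.47) and IL-6KO skin (3.78 ± 0.35). The first 2 groups of this order, IL-17C+KO uninvolved and IL-17C+ involved, differed by -0.47 ± 0.61 (limma, adjusted p = 0.956, 95% interval -1.80 to 0.85), where 0% of all genes passed (1012 at an unadjusted p under 0.05), and the last 4 differ among each other by less than their spread. Ccl4 averaged 6.94 ± 0.51 in IL-17C+KO uninvolved skin, against 7.31 ± 1.03 in IL-17C+ involved skin (SD, n = 2 each), and its other 4 group means lay between 4.56 and 5.09. Between these high groups Ccl4 differed by -0.37 ± 0.41 (limma, adjusted p = 0.947, interval -1.26 to 0.52).

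The first comparison is that of lesional transgenic skin with WT skin. In IL-17C+ involved skin, 2 of 10 members rose over WT, 0 fell and 8 did not pass, where 1.10% of all genes rose and 0.699% fell. Ccl3 rose by 4.15 ± 0.61 log2 units (17.8-fold, limma adjusted p = 0.00419), the rise of rank 22 among all genes. Ccl4 rose by 2.40 ± 0.41 (5.27-fold, limma adjusted p = 0.0116). The rises were larger at 14 weeks (5.37 for Ccl3, 3.35 for Ccl4) than at 10 weeks (2.94 and 1.44), a difference between single pools that was not tested. Over the 10 members the median difference was 0.20, against 0.01 over all genes. The 8 neutrophil markers rose as well (8 of 8), 9 of 10 muscle markers fell, and 1 of 10 monocyte and macrophage markers rose. Of the mast cell markers 3 of 7 rose (median difference 1.45), and 2 of 8 dendritic and Langerhans cell markers fell. The part of neutrophils, mast cells and the other cell types in the Ccl3 and Ccl4 values was not tested. With the mean of the muscle markers in the model, the sizes were 3.77 ± 1.34 for Ccl3 and 2.34 ± 0.91 for Ccl4, and neither passed (limma, adjusted p = 1 for both). No member passed without the 14-week WT array or without the 14-week IL-17C+ involved array, where the Ccl3 difference was 3.82 and 3.04.

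Against uninvolved skin of the same genotype, IL-17C+ involved skin again had 2 of 10 members higher, 0 lower and 8 that did not pass, where 0.775% of all genes were higher. All 8 neutrophil markers, 3 of 7 mast cell markers and 1 of 10 monocyte and macrophage markers were higher too. Lower were 8 of 10 muscle markers and 2 of 8 dendritic and Langerhans cell markers, where 0.834% of all genes were lower. The part of these cell types was not tested. Ccl3 was higher by 3.97 ± 0.61 (15.7-fold, limma adjusted p = 0.00578) and Ccl4 by 2.74 ± 0.41 (6.69-fold, limma adjusted p = 0.00507). The Ccl3 difference was 5.88 at 14 weeks and 2.07 at 10 weeks, and that of Ccl4 3.82 and 1.67. In IL-17C+ uninvolved skin against WT skin, 0 of 10 members passed, where 0.0541% of all genes did. Ccl3 differed there by 0.18 with a 95% interval of -1.14 to 1.5, and Ccl4 by -0.34 with an interval of -1.23 to 0.54. With the 14-week IL-17C+ involved array left out, 0 members passed between involved and uninvolved skin (Ccl3 2.85), and without the 14-week uninvolved array 1 did (Ccl3 2.80). The Ccl3 difference was 5.09 without the 10-week involved array and 5.14 without the 10-week uninvolved one. Without the 14-week WT array, Ccl20 was lower in IL-17C+ uninvolved than in WT skin (-1.73, limma adjusted p = 0.0263).

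**Figure D2:**
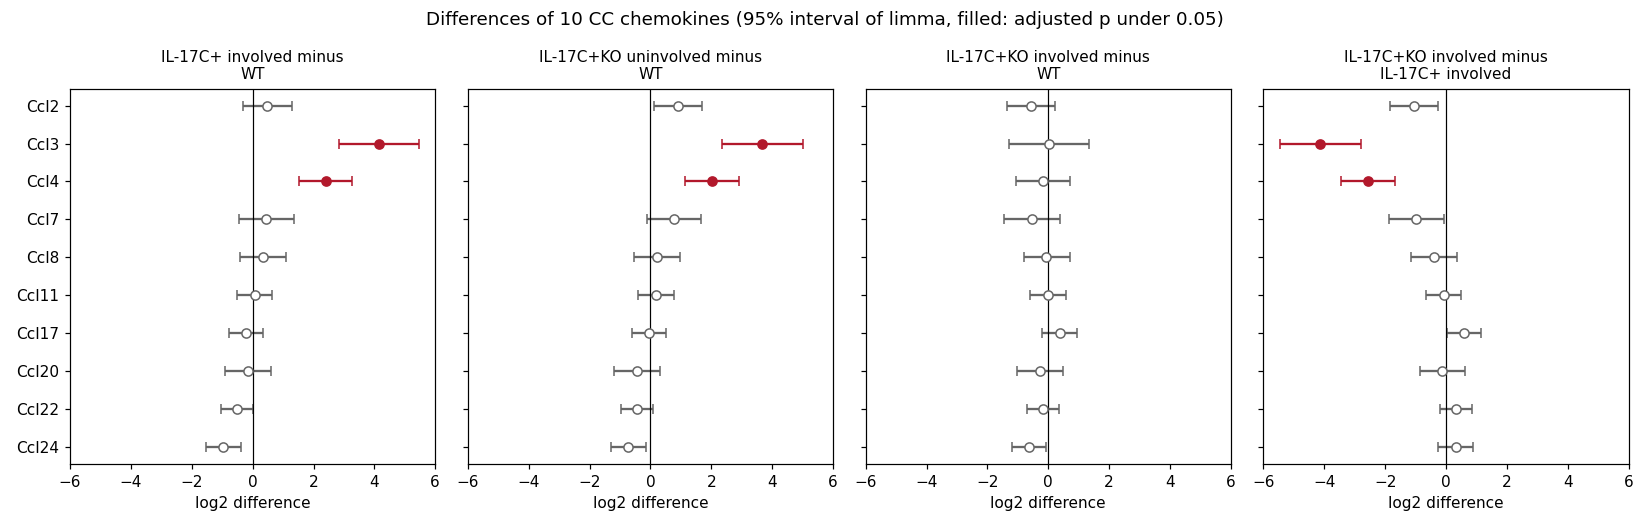
Log2 difference of each member (x axis) with its 95% limma interval, for IL-17C+ involved against WT, IL-17C+KO uninvolved against WT, IL-17C+KO involved against WT, and IL-17C+KO involved against IL-17C+ involved skin. Filled points have an adjusted p under 0.05. Ccl3 and Ccl4 are the only filled points, on the positive side in the first 2 panels (Ccl3 4.15 and 3.68) and on the negative side in the last (Ccl3 -4.13).

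The next comparisons ask how loss of IL-6 changes the picture. In skin labelled IL-17C+KO uninvolved, 2 of 10 members rose over WT, 0 fell and 8 did not pass, where 1.12% of all genes rose. Ccl3 rose by 3.68 ± 0.61 (12.8-fold, limma adjusted p = 0.0115), by 4.18 at 14 weeks and 3.18 at 10 weeks. Ccl4 rose by 2.03 ± 0.41 (4.08-fold, limma adjusted p = 0.0316). Of the neutrophil markers 7 of 8 rose, as did 1 of 10 monocyte and macrophage markers. Of the muscle markers 2 of 10 fell, where 0.271% of all genes fell. The part of these cell types was not tested. In skin labelled IL-17C+KO involved, 0 of 10 members passed against WT, where 0.0225% of all genes did, and the Ccl3 difference was 0.02 (95% interval -1.30 to 1.34). In IL-6KO skin 0 of 10 passed against WT, where 0.455% of genes did, and the Ccl3 difference was -0.09 (interval -1.41 to 1.23). Of the fibroblast markers 3 of 6 were lower in IL-6KO skin, as were 2 of 10 muscle markers. With the muscle mean in the model, Ccl3 in IL-17C+KO uninvolved skin differed from WT by 3.41 ± 1.03 (limma, adjusted p = 0.582). No member passed there when the 14-week WT array or either IL-17C+KO uninvolved array was left out.

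Between the pools labelled involved, IL-17C+KO skin had 2 of 10 members lower than IL-17C+ skin, 0 higher and 8 that did not pass, where 0.419% of all genes were lower. Ccl3 fell by 4.13 ± 0.61 (17.5-fold lower, limma adjusted p = 0.00948), the fall of rank 9 among all genes, with per-age differences of -4.76 at 14 weeks and -3.5 at 10 weeks. Ccl4 fell by 2.58 ± 0.41 (5.97-fold lower, limma adjusted p = 0.0128). Ccl2 differed by -1.04 ± 0.37 (limma adjusted p = 0.328) and Ccl7 by -0.98 ± 0.42 (0.473), and neither passed. Of the neutrophil markers 6 of 8 fell, as did 2 of 7 mast cell, 1 of 10 monocyte and macrophage and 1 of 6 fibroblast markers. Among muscle markers 1 of 10 rose, where 0.230% of all genes rose. Between the pools labelled uninvolved the order turned: IL-17C+KO skin had Ccl3 higher by 3.50 ± 0.61 (11.3-fold, limma adjusted p = 0.0181) and Ccl4 higher by 2.37 ± 0.41 (5.17-fold, 0.0169) than IL-17C+ skin, 2 of 10 members where 0.541% of genes were higher. Higher too were 7 of 8 neutrophil markers and 1 of 10 monocyte and macrophage markers. Lower were 2 of 10 muscle markers, where 0.171% of genes were lower. The Ccl3 difference there was 4.69 at 14 weeks and 2.31 at 10 weeks. The part of these cell types in the values was not tested. In the comparison of pools labelled involved, no member passed without the 10-week IL-17C+KO or the 14-week IL-17C+ array. In that of pools labelled uninvolved, none passed without either IL-17C+KO array or the 14-week IL-17C+ array (Ccl3 2.33 without the last), and the Ccl3 difference was 4.67 without the 10-week IL-17C+ array. With the muscle mean in the model, 0 members passed in either (Ccl3 -3.87 ± 1 and 3.22 ± 1.05, limma adjusted p = 0.601 and 1).

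Within the mice labelled IL-17C+KO, involved skin had 2 of 10 members lower than uninvolved skin, where 0.478% of all genes were lower. Lower too were 5 of 8 neutrophil, 1 of 10 monocyte and macrophage and 1 of 6 fibroblast markers, and their part was not tested. Ccl3 fell by 3.65 ± 0.61 (12.6-fold lower, limma adjusted p = 0.0212), with per-age differences of -3.57 at 14 weeks and -3.74 at 10 weeks. Ccl4 fell by 2.21 ± 0.41 (4.62-fold lower, limma adjusted p = 0.0352). With pools paired by genotype and age as a replicate block, 1 member passed, Ccl2 (-1.47, limma adjusted p = 0.0426), while Ccl3 (0.126) and Ccl4 (0.135) did not. The count was 0 without either IL-17C+KO uninvolved array or the 10-week involved one, and 1 without the 14-week involved array or either IL-6KO array. Against IL-6KO skin, IL-17C+KO uninvolved skin had 1 of 10 members higher, Ccl3 by 3.77 ± 0.61 (13.6-fold, limma adjusted p = 0.0169), where 0.392% of genes were higher. Of the neutrophil markers 5 of 8 were higher, as were 2 of 10 monocyte and macrophage and 1 of 6 fibroblast markers, and their part was not tested. Ccl4 differed there by 1.84 ± 0.41 (limma adjusted p = 0.0905). This count was 0 without either array of these 2 groups, and 2 without any 1 of the 4 IL-17C+ arrays. IL-17C+KO involved skin against IL-6KO skin had 0 of 10, where 0.171% of genes passed. IL-17C+ involved skin against IL-6KO skin had 2 of 10 higher, Ccl3 by 4.25 ± 0.61 (limma adjusted p = 0.00867) and Ccl4 by 2.21 ± 0.41 (0.0387), where 0.388% of genes were higher. Higher too were 6 of 8 neutrophil, 2 of 10 monocyte and macrophage, 1 of 7 mast cell and 1 of 6 fibroblast markers, and their part was not tested. No member passed there without either IL-6KO array or the 14-week IL-17C+ involved array. In IL-17C+ uninvolved against IL-6KO skin 0 of 10 passed, where 0.0947% of genes did, and in IL-17C+KO involved against IL-17C+ uninvolved skin 0 of 10, where 0.189% did.

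The interactions test whether these effects differ. Taken by the labels, the effect of the transgene in involved skin was smaller without IL-6. The difference of differences was -4.04 ± 0.86 for Ccl3 (limma adjusted p = 0.0407) and -2.76 ± 0.58 for Ccl4 (0.0366), 2 of 10 members where 0.834% of all genes were lower. With them 7 of 8 neutrophil, 1 of 7 mast cell and 1 of 10 monocyte and macrophage markers were lower. Higher were 8 of 10 muscle and 1 of 8 dendritic and Langerhans cell markers, where 0.473% of all genes were higher. The part of these cell types was not tested. The direction rests on the label involved of the IL-17C+KO pools and on the label IL-6KO of their baseline. Il17c read higher in that baseline (6.17 and 6.30) than in the IL-17C+KO pools labelled involved (5.62 and 5.32). Whether their difference holds an effect of the transgene was not tested. Ccl3 differed from IL-6KO skin by 0.12 in the IL-17C+KO pools labelled involved and by 3.77 in those labelled uninvolved, and from WT skin by 4.15 in IL-17C+ involved skin. These calls lie near the threshold, and both adjusted p were 0.0506 without age in the model. Leaving out 1 array ended both calls for 5 arrays (both IL-6KO arrays, 10-week IL-17C+KO involved, 14-week WT and 14-week IL-17C+ involved) and 1 call for 3 others (both IL-17C+KO uninvolved arrays and 14-week IL-17C+KO involved). The effect of the label involved against uninvolved was lower in IL-17C+KO than in IL-17C+ skin for 8 of 8 neutrophil markers. It was also lower for 4 of 7 mast cell, 2 of 10 monocyte and macrophage and 1 of 6 fibroblast markers. For 9 of 10 muscle and 2 of 8 dendritic and Langerhans cell markers it was higher, where 1.15% of all genes were higher. The part of these cell types was not tested. This effect differed by -7.63 ± 0.86 for Ccl3 (limma adjusted p = 0.000439) and by -4.95 ± 0.58 for Ccl4 (0.000552), where 1.43% of genes were lower. These 2 calls held with each of the 12 arrays left out in turn. With the muscle mean in the model they were -7.09 ± 1.86 (adjusted p = 0.59) and -4.87 ± 1.27 (0.575). Between 14 and 10 weeks 0 of 10 members passed, where 0% of all genes did (limma, 1856 genes at an unadjusted p under 0.05), and Ccl3 differed by -0.10 ± 0.35.

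The monocyte-attracting members Ccl2 and Ccl7, ligands of CCR2, varied from pool to pool without passing in any comparison of the full model. Ccl2 read 4.81 and 4.21 in IL-17C+KO involved, 6.23 and 5.72 in IL-17C+KO uninvolved skin, 5.21 and 5.90 in IL-17C+ involved, 5.11 and 6.25 in IL-17C+ uninvolved, 4.73 and 4.75 in IL-6KO and 4.88 and 5.26 in WT skin (14 and 10 weeks). Its highest values are single pools of IL-17C+ uninvolved and IL-17C+KO uninvolved skin, and the 14-week and 10-week pools of IL-17C+ uninvolved skin lie farther apart than those of any other group. Ccl7 read 6.19 and 5.73 in IL-17C+KO involved, 6.97 and 7.58 in IL-17C+KO uninvolved skin, 7.18 and 6.72 in IL-17C+ involved, 6.09 and 7.77 in IL-17C+ uninvolved, 5.92 and 6.22 in IL-6KO and 6.19 and 6.81 in WT skin. The 10-week pool of IL-17C+ uninvolved skin is the highest for both genes. That pool also had the higher monocyte and macrophage mean of its group (6.17 at 14 weeks, 7.28 at 10 weeks), and the part of these cells was not tested.

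Between IL-17C+ involved and WT skin Ccl2 differed by 0.48 ± 0.37 (limma adjusted p = 0.693) and Ccl7 by 0.45 ± 0.42 (0.76). The largest Ccl2 difference was -1.47 ± 0.37, in IL-17C+KO skin labelled involved against uninvolved (limma adjusted p = 0.157), where Ccl7 differed by -1.31 ± 0.42 (0.397). Ccl8, in mice a ligand of CCR8, read 6.79 to 7.97 over all arrays, with both extremes in IL-17C+ skin, and differed by 0.33 ± 0.35 between IL-17C+ involved and WT skin (limma adjusted p = 0.792).

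The eotaxins Ccl11 and Ccl24 are ligands of CCR3 that draw eosinophils. Ccl11 had the narrowest range, 6.27 to 6.88, with both extremes in WT skin, and differed by 0.07 ± 0.27 between IL-17C+ involved and WT skin (limma adjusted p = 0.963). Ccl24 read 4.10 and 4.50 in IL-17C+KO involved, 4.10 and 4.31 in IL-17C+KO uninvolved skin, 3.82 and 4.14 in IL-17C+ involved, 4.34 and 4.40 in IL-17C+ uninvolved, 3.78 and 4.78 in IL-6KO, and 4.99 and 4.88 in WT skin. Both WT pools lie above all 10 other arrays. The differences did not pass: -0.96 ± 0.26 in IL-17C+ involved (limma adjusted p = 0.0985), -0.73 in IL-17C+KO uninvolved (0.218), -0.63 in IL-17C+KO involved (0.621) and -0.65 in IL-6KO skin (0.514). These 4 share the same 2 WT arrays. Of 8 eosinophil markers 6 were measured, and all 6 lay below the array median in both pools of every group.

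Ccl17 and Ccl22 are ligands of CCR4, which skin-homing and helper T cells carry, and Ccl20 is the ligand of CCR6. Ccl17 read 4.42 at 14 weeks in IL-17C+KO involved skin and 3.42 to 3.96 on the other 11 arrays. Ccl22 read 4.13 to 4.82 over all arrays and differed by -0.51 ± 0.24 between IL-17C+ involved and WT skin (limma adjusted p = 0.445). Ccl20, whose promoter with its overlapping matches is printed above, read 4.03 and 3.86 in IL-17C+ involved skin, against 3.28 and 4.91 in WT skin. The WT pools of 14 and 10 weeks lie on both sides of the involved ones. The Ccl20 difference was -0.15 ± 0.34 (limma adjusted p = 0.925), with a 95% interval of -0.90 to 0.59 on the log2 scale. Against IL-17C+ uninvolved skin, which read 3.04 and 3.20 and lies below both involved pools, Ccl20 in IL-17C+ involved skin differed by 0.82 ± 0.34 (limma adjusted p = 0.346).

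Among the 14 receptors measured, Ccr1 was the only one to pass in any comparison, where 0% to 2.58% of all genes passed per comparison. Ccr1, a receptor of CCL3 on neutrophils and monocytes, read 3.74 and 3.04 in IL-17C+KO involved, 6.23 and 5.60 in IL-17C+KO uninvolved skin, 5.86 and 5.07 in IL-17C+ involved, 2.68 and 3.83 in IL-17C+ uninvolved, 3.42 and 2.77 in IL-6KO and 3.16 and 3.28 in WT skin. It was high on the 4 arrays where Ccl3 and Ccl4 were high, with no overlap, a split whose share over all genes was not counted. Ccr1 rose over WT by 2.25 ± 0.39 in IL-17C+ involved skin (limma adjusted p = 0.0122) and by 2.70 in IL-17C+KO uninvolved skin (0.00502), and fell by 2.08 in IL-17C+KO involved against IL-17C+ involved skin (0.0343). The largest difference of a receptor that did not pass in IL-17C+ involved against WT skin was that of the scavenging receptor Ackr4 (-0.93 ± 0.26, limma adjusted p = 0.11). The median over the receptors in that comparison was -0.22, against 0.01 over all genes.

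Of 11 further CC chemokines 9 were measured (Ccl19 and Ccl21a have only rows that name several genes). Of these, 0 of 9 passed in any comparison, where 0% to 2.58% of all genes passed per comparison. A count of 0 among 9 genes is near that share. The largest difference among them in IL-17C+ involved against WT skin was that of Ccl6, a myeloid chemokine (0.94 ± 0.47, limma adjusted p = 0.464). In IL-17C+KO uninvolved against WT skin it was 1.18 ± 0.47 (0.258), and in IL-17C+KO involved against IL-17C+ involved skin -1.13 ± 0.47 (0.461). Ccl27a, which keratinocytes make to draw skin-homing T cells, had the largest difference in IL-17C+ uninvolved against WT skin (-0.70 ± 0.27, limma adjusted p = 0.832). Further rows name Ccl27a together with other genes, so its own signal is uncertain. The heat map of the family shows the contrast between Ccl3, Ccl4 and Ccr1 and the other genes.

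**Figure D3:**
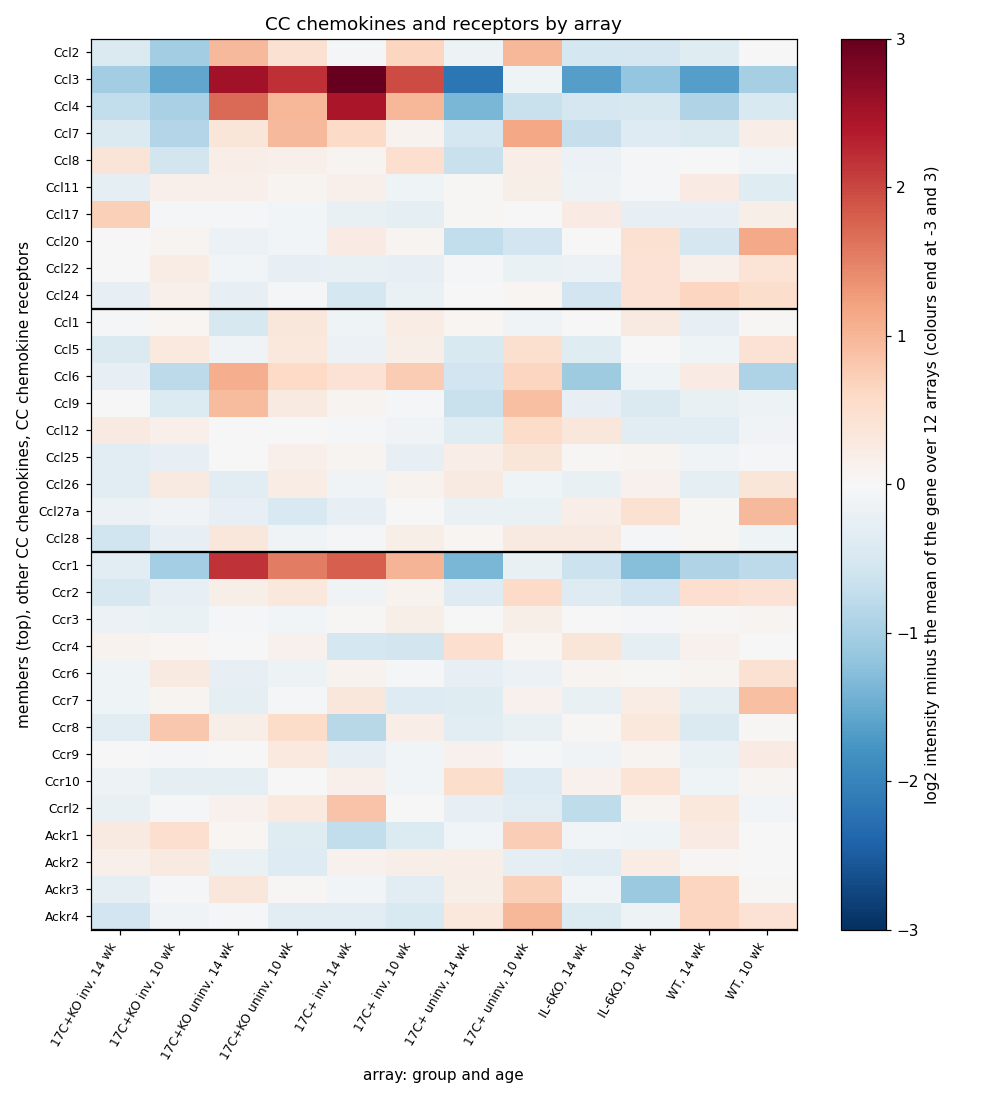
Log2 intensity minus the gene's mean over the 12 arrays (colour, ending at -3 and 3) for the 10 members, the 9 other CC chemokines and the 14 receptors (y axis) on each array (x axis). Ccl3, Ccl4 and Ccr1 are high on the IL-17C+KO uninvolved and IL-17C+ involved arrays.

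In the order of protein-coding genes of GRCm38.p6, Ccl3 and Ccl4 are direct neighbours on chromosome 11, next to Ccl6, and Ccl2, Ccl7, Ccl11 and Ccl8 lie in another run on the same chromosome with Ccl12 between Ccl11 and Ccl8. Ccl17 and Ccl22 flank Cx3cl1 on chromosome 8. Over the 12 arrays the log2 levels of Ccl3 and Ccl4 had a Pearson correlation of 0.97, which rests on the 4 high arrays standing apart. Over the 8 arrays of the other 4 groups it was 0.58. For Ccl2 and Ccl7 it was 0.83 over 12 arrays and 0.95 over those 8, and for Ccl22 and Ccl24 it was 0.78 and 0.77. The points of each pair share their array, and these are descriptions.

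**Figure D4:**
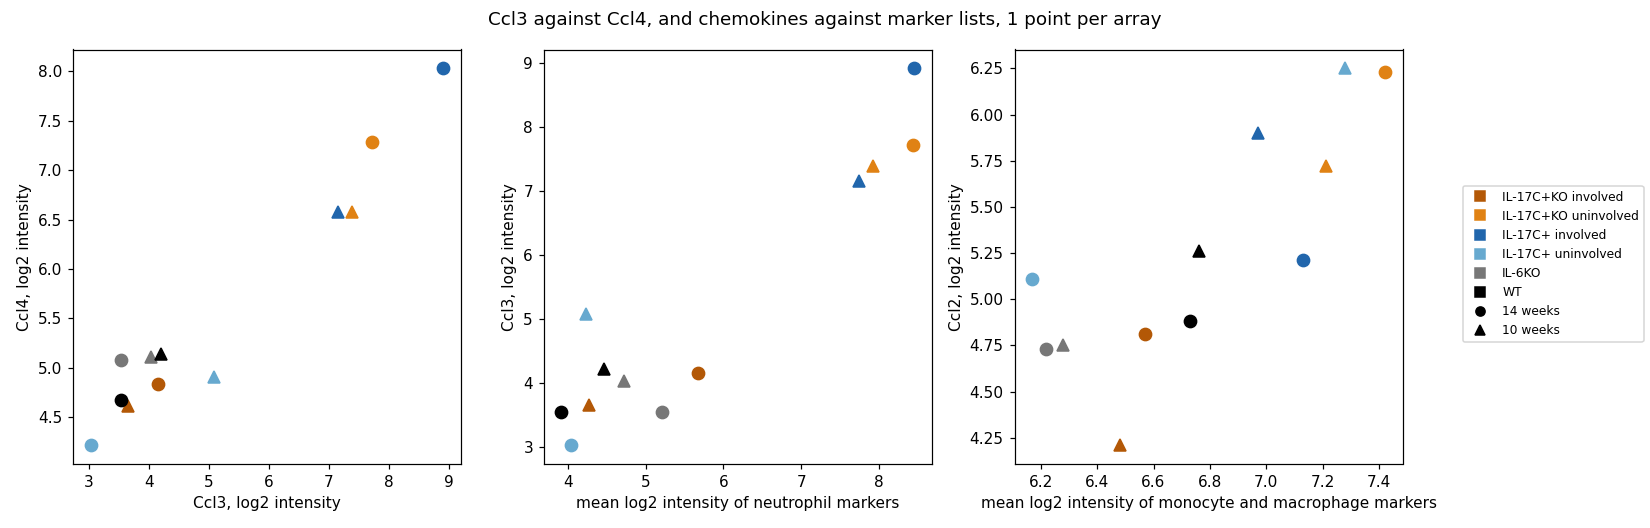
Log2 level of Ccl4 against Ccl3, of Ccl3 against the mean of the neutrophil markers, and of Ccl2 against the mean of the monocyte and macrophage markers, with 1 point per array coloured by group (circles 14 weeks, triangles 10 weeks). The IL-17C+KO uninvolved and IL-17C+ involved arrays form a separate high cluster in the first 2 panels.

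The genes most like Ccl3 over the 12 arrays, among 6725 genes with a range of at least 1 log2 unit, were Adam8 (0.99), Hdc (0.99) and Plek (0.98), and their correlation over the 8 arrays outside the high groups was 0.94, 0.75 and 0.85. Most like Ccl4 were Nlrp3 (0.98), Cxcl2 (0.98) and Cxcl3 (0.97), with 0.52, 0.69 and 0.74 over those 8. Most like Ccl2 were Ms4a7 (0.93), Mmp3 (0.91) and Adamts12 (0.89), and most like Ccl7 were Themis2 (0.91), Ms4a7 (0.91) and Dock2 (0.90). Ccl24 was most like Hspa12a (0.91), the MHC class II gene H2-Eb1 (0.91) and the T cell receptor subunit gene Cd3e (0.88). Ccl20 was most like Tekt2 (0.92), Ces3a (0.92) and Trhr2 (0.91), and Ccl22 like Tmem107 (0.91), Hmgb3 (0.89) and Gpx6 (0.88). Ccl20 lay below the array's median gene on 10 arrays, and its highest level (4.91) was on the 10-week WT array. Ccl8 was most like Papss2 (0.83), Tspan11 (0.83) and Cma1 (0.81). Most like Ccl11 were Zfhx3 (0.85), Zfp628 (0.82) and Mylk (0.80), and most like Ccl17 were Nrip3 (0.85), Slc19a2 (0.82) and Atp13a5 (0.81). Over the 12 arrays, no other member had genes as like it as those found for Ccl3 and Ccl4 (0.97 or above). This order did not hold over the 8 arrays outside the high groups. There Nrip3 had 0.97 with Ccl17 and Ms4a7 had 0.95 with Ccl7, against 0.94 for Adam8 with Ccl3 and at most 0.74 for the genes of Ccl4. For each member these are the 3 highest among 6725 genes over 12 arrays, and the correlations were not tested.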

How the data were processed

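The authors deposited 1 table of linear array intensity values for 12 pools of dorsal skin. Per the submitters' processing notes, the intensity values were made with RMA in Affymetrix Expression Console, versions not given in the sources used here. Log2 of each deposited value was taken. Of 41345 rows, 23521 name 1 gene, 1814 several and 16010 none. Rows naming 1 gene were used, and for 1082 genes with several rows the one with the highest mean, which left 22180 genes. Samples were grouped by their titles. The fit was lmFit and eBayes with an intensity trend (limma 3.58.1, R 4.3.3) on group and age over all 12 arrays, with 5 residual and 7.65 prior degrees of freedom, and was tested on simulated data. Each of 14 comparisons, and each of 4 further pairs of groups, was adjusted by Benjamini-Hochberg over all genes at 0.05. The number of arrays limits precision.

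The 10 members, the lists of other CC chemokines, receptors and cell type markers, and the tests were chosen with earlier results of these data known. All members are named, and of the other 2 family lists those that passed and the largest difference that did not. For likeness, the 3 genes with the highest Pearson correlation were named. Alternatives covered the age term, a block of genotype and age, the trend, a filter on dim genes, quantile normalization, log2(value + 16), the mean of a gene's rows, array weights, the groups in the fit, a muscle covariate and leaving out each array. These 4 pairs (IL-17C+ involved or uninvolved against IL-6KO, IL-17C+KO uninvolved against IL-17C+ involved, IL-17C+KO involved against IL-17C+ uninvolved) and the fits without the IL-6KO or the IL-17C+KO arrays, were added after seeing the data. Promoters come from RefSeq (GRCm38.p6), a build used only for them and for names and neighbours.

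Involved and uninvolved pools share genotype and age in the labels, but no source used here says whether they share mice.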

Additional observations from a re-analysis of the deposited data

Results flagged for a closer look

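The values below come from tests of a difference between effects, each by limma with its adjusted p over 22180 genes. The transgene's effect in involved skin differed between mice without and with IL-6 by -4.04 ± 0.86 for Ccl3 (adjusted p = 0.0407) and by -2.76 ± 0.58 for Ccl4 (0.0366). Il17c, the check of the labels, differed there by -2.17 ± 0.42 (0.0258). The 3 values rest on the labels of the IL-17C+KO involved and IL-6KO pools, which other values go against: against IL-6KO skin, Ccl3 differed by 3.77 in IL-17C+KO uninvolved skin and by 0.12 in IL-17C+KO involved skin. The Ccl3 and Ccl4 calls lie near the threshold (adjusted p = 0.0506 for both without age in the model), and 5 of the 12 arrays ended both when left out.

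The effect of involved against uninvolved skin differed between IL-17C+KO and IL-17C+ mice by -7.63 ± 0.86 for Ccl3 (limma adjusted p = 0.000439), by -4.95 ± 0.58 for Ccl4 (0.000552) and by -4.74 ± 0.55 for the receptor gene Ccr1 (0.000552). For Il17c this difference was -2.51 ± 0.42 (0.0067). All 4 rest on the labels involved and uninvolved of the IL-17C+KO pools, which the neutrophil markers go against.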

How the results depend on the processing

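The 19 differences that passed had 425 values under alternatives. Of these 337 stayed past the threshold, 88 did not and 0 had another sign. Of the 124 differences not printed singly, 0 passed under an alternative and 167 of 2716 values had another sign. With the muscle mean as a covariate, 0 members passed in IL-17C+ involved and IL-17C+KO uninvolved against WT, IL-17C+ and IL-17C+KO involved against their uninvolved skin, IL-17C+KO against IL-17C+ skin in both sites, and both interactions. The muscle mean moves with the groups, and standard errors rose with it (Ccl3 in IL-17C+ involved against WT, 3.77 ± 1.34). The covariate also turned non-passing differences: Ccl7 (-0.55) and Ccl8 (-0.25) in IL-17C+ involved against WT, Ccl3 (-0.10) in IL-17C+KO involved against WT, Ccl20 (-0.20) in IL-17C+ involved against uninvolved, Ccl24 (-0.11) in the transgene interaction and Ccl7 (0.06) in the site interaction. Ccl3 between ages was 0.11 with log2(value + 16) and 0.20 with array weights.

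In IL-17C+KO uninvolved against WT, 1 member passed with log2(value + 16) and with array weights. In IL-17C+KO involved against uninvolved, 1 passed without the trend, with repeated quantile normalization, with log2(value + 16), with the replicate block of genotype and age, and without both IL-6KO arrays. In IL-17C+KO uninvolved against IL-6KO, 4 passed when only those groups were fitted. In IL-17C+ involved against IL-6KO, 1 passed without the trend and with the muscle covariate. In the transgene interaction, 0 passed without the replicate block of age, without the trend and with array weights, and 1 with log2(value + 16). The correlation of deviations within the 15 pairs of groups had a median of 0.07 (-0.21 to 0.52, 7 over 0.1). Pools of the same age thus deviated together in some pairs of groups and not in others. The causes were not tested.

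Leaving out 1 array, the number of members that passed ranged 0 to 1 in IL-17C+ uninvolved against WT, was 2 in the site interaction throughout, and ranged 0 to 2 in every other comparison with a call. It was 0 in IL-17C+KO involved and IL-6KO against WT, IL-17C+KO involved against IL-6KO, age, and the 3 added pairs without a call. Non-passing differences that changed sign ranged, in IL-17C+ involved against WT, -0.06 to 0.96 (Ccl7), -0.27 to 0.41 (Ccl11), -0.57 to 0.13 (Ccl17) and -0.91 to 0.60 (Ccl20). In IL-17C+ uninvolved against WT they ranged -0.99 to 1.35 (Ccl3) and -0.88 to 0.19 (Ccl4), in IL-17C+KO involved against WT -0.34 to 0.39 and -0.58 to 0.22, and in IL-6KO against WT -0.43 to 0.25 and -0.21 to 0.58. Ccl3 ranged -0.25 to 0.48 in IL-17C+KO involved against IL-6KO and -0.47 to 0.29 between ages, and Ccl4 -0.05 to 0.38 between ages. In IL-17C+KO uninvolved against IL-17C+ involved, they ranged -1.59 to 0.64 (Ccl3) and -1.12 to 0.38 (Ccl4). Leaving out an array leaves a group with 1 pool, assumed to vary like the others. Dim members (Ccl17, Ccl20, and Ccl3 in WT and IL-6KO skin) limit what these arrays can show.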
